A study of Homo sapiens with 6 samples.

Results

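TERT and 9 genes around it lie within the first 2 Mb from the end of the short arm of chromosome 5, in band 5p15, and the data on these 10 genes are described here. They are AHRR, EXOC3, CEP72, TPPP, BRD9, TRIP13, NKD2, SLC12A7, TERT and CLPTM1L, in the order in which they follow each other from the chromosome end. The members were chosen by gene symbol from a table of 60504 genes, with the difference between the groups in these same libraries already known, and all 10 had a row. Their values are therefore given as a description. Where a member is said below to pass thresholds, in the main fit or an alternative, this describes the fit and carries no support.

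RNA-seq libraries came from WM164, a human melanoma cell line of genotype BRAFV600E. The 6 libraries formed an EV group, transfected with an empty expression vector, and an HDAC8 group, transfected with an HDAC8 expression vector, with 3 libraries in each. HDAC8 is a class I histone deacetylase. Both groups were kept in hygromycin, so selection was common to them, and whether each line is a pool or 1 clone is not stated. The comparison asks which transcripts differ between melanoma cells given extra HDAC8 and cells given the empty vector.

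Telomerase adds telomeric repeats to chromosome ends with its catalytic subunit TERT, a reverse transcriptase, and its RNA template TERC. TERT is silent in most differentiated cells and is switched on again in most melanomas. The tip of 5p is a gene-dense stretch that is gained in many cancers, and the TERT-CLPTM1L locus carries inherited variants linked to the risk of melanoma and other tumors.

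Total counts per library ran from 34741083 to 42041462 and overlapped between the groups. The transcript of HDAC8 itself ranged from 384 to 479 normalized counts with EV and from 446 to 485 with HDAC8, a log2 difference of 0.15 with an SE of 0.28 (adjusted p = 0.856 by DESeq2), so it does not check the labels, and "HDAC8" stands for the libraries labelled so. Mitochondrially encoded transcripts took 9.66% to 12.8% of the counts with EV and 4.46% to 7.94% with HDAC8. All 6 melanocytic markers examined were expressed, and their summed level was 243681 to 327472 normalized counts with EV and 136367 to 181341 with HDAC8. Most of this sum was PMEL, and the markers differed. MLANA had 8618, 8323 and 9052 with EV and 237, 300 and 372 with HDAC8. Every marker but MITF was lower in all HDAC8 libraries than in all EV libraries. MITF overlapped, with 17824, 16257 and 17935 against 11314, 17920 and 16096. Summed markers of fibroblasts reached at most 2852, most of it LUM, and those of immune cells, keratinocytes and endothelial cells at most 248. Of the immune markers, CD3E was at 0 in every EV library and at 78.7, 91.1 and 50.1 in HDAC8 1 to 3. The part of these shifts in the results below was not tested.

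The sequence upstream of 3 of these genes, EXOC3, SLC12A7 and AHRR, is shown because they were the members that passed the thresholds described below, and the short interval between BRD9 and TRIP13 is shown because these genes are transcribed away from each other from it. The sequences are from RefSeq, build GRCh38.p14, and run 5′ to 3′ on the strand of the gene, or on the plus strand for the interval. They are at chr5:442926-443175 (plus), chr5:1112064-1112313 (minus), chr5:321464-321713 (plus) and chr5:892802-892883. Capitals mark matches on either strand to the GC box GGGCGG, the E-box CACGTG and GCGTG, the core that the aryl hydrocarbon receptor recognizes.
EXOC3 upstream: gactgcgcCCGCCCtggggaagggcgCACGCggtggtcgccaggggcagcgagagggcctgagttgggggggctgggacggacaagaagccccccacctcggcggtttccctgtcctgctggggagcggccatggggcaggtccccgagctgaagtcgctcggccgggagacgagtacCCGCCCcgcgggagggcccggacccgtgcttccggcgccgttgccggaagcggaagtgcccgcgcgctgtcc
SLC12A7 upstream: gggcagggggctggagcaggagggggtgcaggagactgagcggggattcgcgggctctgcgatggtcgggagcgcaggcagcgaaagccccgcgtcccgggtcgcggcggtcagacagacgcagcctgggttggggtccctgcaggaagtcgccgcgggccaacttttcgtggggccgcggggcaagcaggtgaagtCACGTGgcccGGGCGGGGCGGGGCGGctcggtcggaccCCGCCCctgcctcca
AHRR upstream: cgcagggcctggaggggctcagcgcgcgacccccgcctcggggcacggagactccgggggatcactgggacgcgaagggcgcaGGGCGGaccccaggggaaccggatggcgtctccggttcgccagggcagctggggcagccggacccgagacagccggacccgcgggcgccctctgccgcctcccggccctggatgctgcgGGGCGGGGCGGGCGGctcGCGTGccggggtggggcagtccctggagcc
BRD9-TRIP13 gap: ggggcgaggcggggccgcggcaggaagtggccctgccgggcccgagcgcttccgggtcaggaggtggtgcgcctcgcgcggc

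Over the 250 bases before their RefSeq start, all 10 genes held at least 1 GC box, the element bound by SP1, and 42.6% of 35116 such windows in the genome did. GCGTG was in 6 of the 10 (AHRR, BRD9, CEP72, CLPTM1L, EXOC3 and NKD2) and in 32.2% of all windows. The E-box, which MYC and MITF can bind, was in the windows of SLC12A7 and TERT and in 6.34% of all. The AP-1 motif TGANTCA was in 0 of the 10 and in 6.57% of all. The windows held a median of 30 CpG dinucleotides against 11 over all windows. The windows of the 10 genes held 74.4% to 84.0% G and C, and the shares over all windows were not matched for base composition. How far the motif counts follow from composition was not tested. The letters of these windows are a description only, and no binding was measured here.

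The 10 genes were all higher in the mean of the HDAC8 libraries. Normalized counts are expected counts divided by the DESeq2 size factor of the library, and log2 fold changes are HDAC8 against EV. A gene passed when DESeq2 gave an adjusted p below 0.05 and an absolute log2 fold change of 0.58 or more. Of the members, 3 (AHRR, EXOC3 and SLC12A7) passed, beside 11.0% of the 21021 genes with an adjusted p in either direction and 5.57% in the higher direction. In 6 members (the same 3 with CEP72, TRIP13 and CLPTM1L) every HDAC8 library exceeded every EV library, as in 11.3% of the 26162 genes tested. Because the genes were chosen on this contrast, these counts carry no support. The median log2 fold change was 0.88 over the 10 genes, 0.76 over the 9 with a mean of at least 50 normalized counts, and -0.00 over all genes tested. In bulk RNA a change in the number of cells that express a gene and a change in its level per cell cannot be told apart.

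**Figure D1:**
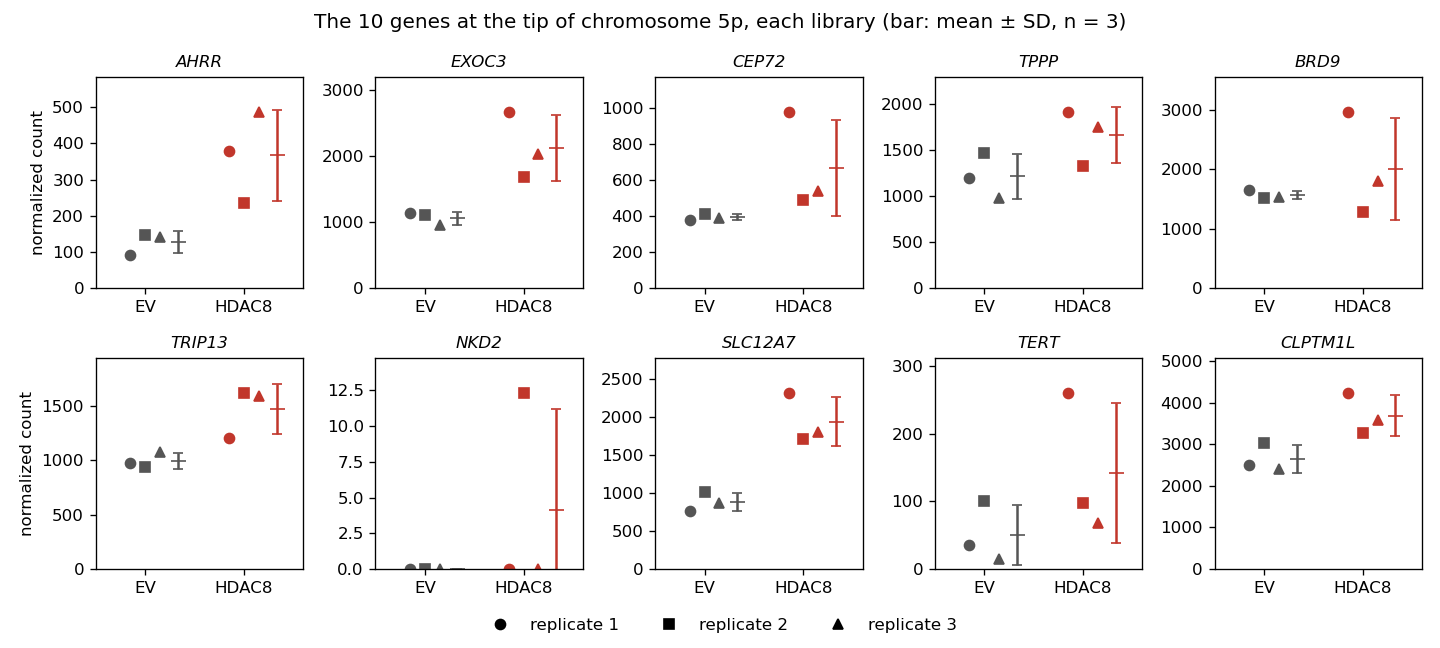
Normalized count (vertical axis, from 0) of each of the 10 genes in the 3 EV libraries (grey) and the 3 HDAC8 libraries (red), with the marker showing the replicate number and the bar the mean ± SD. HDAC8 1 is the highest of the 6 libraries for 7 genes, and the EV and HDAC8 points overlap for TPPP, BRD9, NKD2 and TERT.

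TERT (ENSG00000164362, GRCh38 chromosome 5, 1253147 to 1295068, minus strand) was weakly expressed. Its normalized counts were 35.7, 99.9 and 14.8 in EV 1 to 3 and 259.9, 97.3 and 68.6 in HDAC8 1 to 3. These rested on 34, 107 and 15 expected counts with EV and 304, 95 and 63 with HDAC8. The HDAC8 1 library stood well above the rest, while EV 2 was above HDAC8 2 and HDAC8 3, so the groups overlapped. The means were 50.1 ± 44.4 with EV and 142 ± 103 with HDAC8 (SD, n = 3). On the log2 scale the difference was 1.50 (SE 0.78), with a 95% interval from -0.03 to 3.03. It was 0.72 without HDAC8 1 and 2.49 without EV 2, and in the latter fit TERT passed the thresholds.

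CLPTM1L, the gene next to TERT on the centromere side, encodes a membrane protein that protects cells from cisplatin-induced apoptosis (1317752 to 1345099, minus strand). It reached 2501, 3038 and 2408 normalized counts with EV and 4224, 3265 and 3576 with HDAC8. The groups did not overlap, although EV 2 and HDAC8 2 were close. The means were 2649 ± 340.3 and 3688 ± 489 (SD, n = 3). HDAC8 exceeded EV by 0.48 on the log2 scale (SE 0.17, 95% interval 0.14 to 0.81), which is under the fold threshold. Without EV 2 it was 0.59 and CLPTM1L passed.

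SLC12A7 encodes KCC4, a potassium-chloride cotransporter used in cell volume control, and lies on the telomere side of TERT (1050384 to 1112063, minus strand). Its normalized counts were 771, 1011 and 876 with EV and 2315, 1707 and 1803 with HDAC8. The lowest HDAC8 library was well above the highest EV library. The means were 886 ± 120.2 and 1942 ± 327 (SD, n = 3). The log2 difference of 1.13 (SE 0.21, 95% interval 0.72 to 1.54) stayed between 0.97 and 1.24 under the 15 alternative settings, and SLC12A7 passed in each.

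NKD2, a Dishevelled-binding inhibitor of WNT signaling (1008802 to 1038943, plus strand), was listed at 0 in 5 of the 6 libraries. HDAC8 2 held 12 expected counts, or 12.3 normalized counts. No fold change is given for a gene that rests on 1 library. With the EV libraries of NKD2 set to a floor of 3 counts each and the HDAC8 libraries left as they were, the median log2 fold change over the 10 genes was 0.66.

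TRIP13 and BRD9 start 82 bases apart and are transcribed in opposite directions. TRIP13 is the AAA+ ATPase that remodels MAD2 to silence the spindle checkpoint (892884 to 919357, plus strand). The EV libraries held 975, 934 and 1072 normalized counts of it and the HDAC8 libraries 1202, 1615 and 1591. The groups were apart, and here HDAC8 1 was the lowest HDAC8 library. The means were 994 ± 70.8 and 1469 ± 232 (SD, n = 3). HDAC8 exceeded EV by 0.56 on the log2 scale (SE 0.21, 95% interval 0.15 to 0.97), just under the fold threshold. It was 0.69 without HDAC8 1, and TRIP13 then passed.

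BRD9 is a bromodomain subunit of the non-canonical BAF chromatin remodeling complex (850291 to 892801, minus strand). Its normalized counts were 1644, 1520.4 and 1536 with EV and 2953, 1278 and 1794 with HDAC8. HDAC8 1 was far above the EV libraries and HDAC8 2 below all of them, so the groups overlapped. The means were 1567 ± 67.5 and 2008 ± 858 (SD, n = 3). On the log2 scale the difference was 0.36 (SE 0.26, 95% interval -0.15 to 0.87) and turned to -0.03 without HDAC8 1. The ratio of BRD9 to TRIP13 normalized counts was 1.69, 1.63 and 1.43 in EV 1 to 3 and 2.46, 0.79 and 1.13 in HDAC8 1 to 3. The pair that shares the 82-base interval thus ran in opposite directions across the HDAC8 libraries, HDAC8 1 being high for BRD9 and low for TRIP13.

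CEP72 and TPPP overlap at their ends over 7307 bases on opposite strands. CEP72 is a centrosomal protein that recruits other components to the spindle poles (612340 to 667168, plus strand). It was measured at 379.6, 410.0 and 392 normalized counts with EV and at 975, 489.5 and 538 with HDAC8. The EV libraries lay close together and below all HDAC8 libraries, of which HDAC8 1 was far above the others. The means were 394 ± 15.3 and 667 ± 267 (SD, n = 3). On the log2 scale the difference was 0.76 (SE 0.32, 95% interval 0.13 to 1.39), and 0.38 without HDAC8 1. It was 0.95 without HDAC8 2, and CEP72 then passed, as it did when at least 10 counts were required in every library.

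TPPP, which bundles and stabilizes microtubules (659862 to 693352, minus strand), reached 1194, 1475 and 983 normalized counts with EV and 1913, 1331 and 1758 with HDAC8. HDAC8 2 was below EV 2, so the groups overlapped. The means were 1217 ± 247 and 1667 ± 301 (SD, n = 3), and the log2 fold change was 0.45 (SE 0.23, 95% interval 0.01 to 0.90).

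EXOC3 is a subunit of the exocyst, which tethers secretory vesicles to the plasma membrane (443175 to 471937, plus strand). Its normalized counts were 1137, 1109 and 954 with EV and 2668, 1683 and 2036 with HDAC8. All HDAC8 libraries were well above all EV libraries. The means were 1066 ± 98.6 and 2129 ± 499 (SD, n = 3). HDAC8 exceeded EV by 1.00 on the log2 scale (SE 0.21, 95% interval 0.58 to 1.42). EXOC3 passed under all 15 alternatives, with log2 fold changes from 0.80 to 1.15.

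AHRR, the repressor of the aryl hydrocarbon receptor, is the member nearest to the chromosome end (321714 to 438291, plus strand). AHRR had 92.3, 148 and 141 normalized counts with EV and 379.7, 236 and 486 with HDAC8. The groups did not overlap, and HDAC8 3 was the highest library. The means were 127 ± 30.5 and 367 ± 126 (SD, n = 3). HDAC8 exceeded EV by 1.53 on the log2 scale (SE 0.42, 95% interval 0.70 to 2.36). It passed under every alternative except the fit without HDAC8 3, in which its log2 fold change was 1.27.

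Per kilobase of exon, the order of the EV means was CLPTM1L (404 normalized counts per kb), TRIP13 (299), TPPP (204), BRD9 (164), SLC12A7 (148), EXOC3 (131), CEP72 (110), AHRR (13.4), TERT (8.47) and NKD2 (0). The EV libraries overlapped between TPPP and BRD9, BRD9 and SLC12A7, SLC12A7 and EXOC3, and AHRR and TERT, while the other neighbors in this order did not overlap. In the HDAC8 libraries the means were 563 for CLPTM1L, 443 for TRIP13, 323 for SLC12A7, 279 for TPPP, 261 for EXOC3, 210.3 for BRD9, 186 for CEP72, 38.7 for AHRR, 24.0 for TERT and 1.41 for NKD2. SLC12A7 moved from the fifth to the third place, and the most and least abundant genes kept theirs. The HDAC8 libraries of SLC12A7 (284 to 386), TPPP (223 to 320), EXOC3 (206 to 327) and BRD9 (134 to 309) overlapped, so their order rests on means alone.

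Each library was then set against the EV mean of each gene, on the log2(normalized count + 1) scale. The median difference over the 9 genes with a mean of at least 50 was -0.05, 0.20 and -0.03 in EV 1 to 3. It was 1.31, 0.66 and 0.68 in HDAC8 1 to 3, against medians over all such genes between -0.01 and 0.01. HDAC8 1 was the highest library for 7 of the 10 genes, HDAC8 2 for TRIP13 and NKD2, and HDAC8 3 for AHRR. All 3 HDAC8 libraries were above all 3 EV libraries in this median, with HDAC8 1 the highest.

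The transcripts of these genes are rich in G and C, with a median GC content of 57.9% (47.1% to 67.2%) against 48.4% over all genes tested. Over the 2990 genes with a mean of at least 50 and a GC content from 54.2% to 61.1%, the median difference from the EV mean was 0.31 in HDAC8 1, -0.05 in HDAC8 2 and 0.05 in HDAC8 3. Genes of like GC content were thus also high in HDAC8 1, by less than the 1.31 of the 9 genes. In EV 1 to 3 the medians of these 2990 genes were -0.09, 0.19 and -0.09, against -0.05, 0.20 and -0.03 for the 9 genes. EV 2 was thus the highest EV library in both sets, by a like amount. With counts scaled within 20 bins of GC content, the median log2 fold change of the 10 genes was 0.78.

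**Figure D2:**
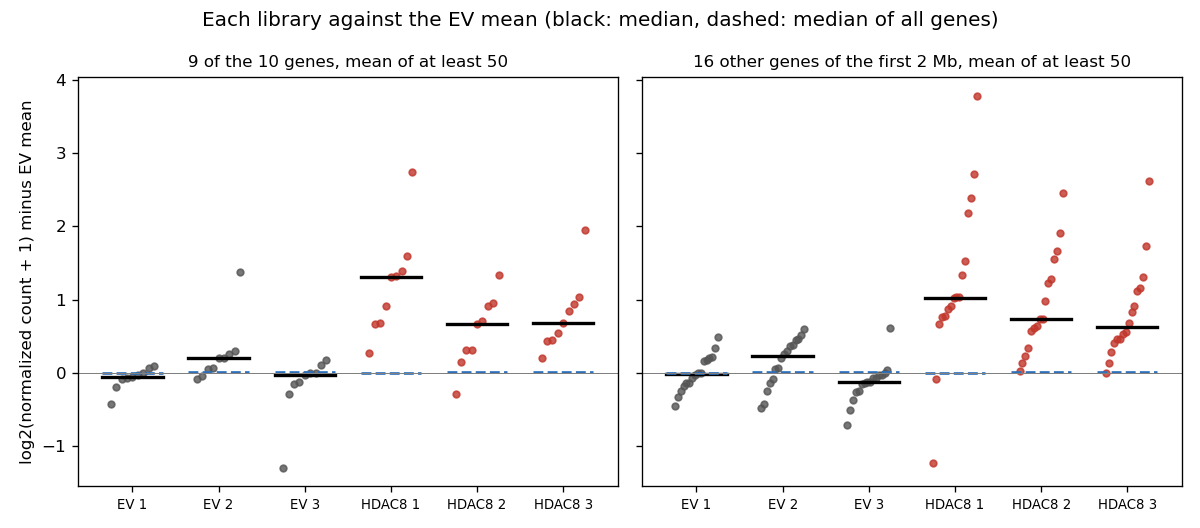
Difference of each library from the EV mean on the log2(normalized count + 1) scale (vertical axis) for 9 of the 10 genes (left) and for 16 other genes that start in the first 2 Mb of chromosome 5 (right), all with a mean of at least 50 normalized counts. Points are genes, black lines their medians and dashed lines the median of all such genes. The medians of the HDAC8 libraries lie between 0.62 and 1.31, and those of the EV libraries between -0.13 and 0.23.

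To see whether the stretch as a whole shifted, the other genes that start in the first 2 Mb of chromosome 5 were taken by position alone. They played no part in the choice of the 10 genes, but the region was proposed with the same libraries, so they are not independent of it. Of 59 such rows, 23 were tested and 20 had an adjusted p. Among these, 7 rose and 0 fell, beside 5.57% of all genes that rose. The log2 fold change was positive in 20 of the 23, and its median was 0.84. In 12 of the 23 every HDAC8 library exceeded every EV library, beside 11.3% of all genes tested, and in 0 every one was below, beside 3316 of all 26162 genes.

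LPCAT1, a lysophospholipid acyltransferase on the centromere side of CLPTM1L, rose with a log2 fold change of 0.84 (SE 0.16, adjusted p = 9.50e-06). Its normalized counts were 3052, 4363 and 3626 with EV and 6830.4, 6062 and 6881 with HDAC8, without overlap. SDHA, the flavoprotein of succinate dehydrogenase, rose by 0.66 (adjusted p = 0.00531), and the coiled-coil gene CCDC127 beside it by 0.77 (adjusted p = 0.00834). ZDHHC11, a palmitoyltransferase, rose by 0.92 (adjusted p = 0.0369), but it shares 8683 bases with BRD9 on the same strand and passed under only 9 of the 15 alternatives. It did not pass without any one of EV 1, EV 2, EV 3 or HDAC8 1, with limma-voom or with the replicate block (adjusted p = 0.0810). SDHA and CCDC127 passed under 12 each. SDHA did not pass without EV 1, without EV 3 or without HDAC8 1, where its log2 fold change was 0.43, and CCDC127 did not without EV 2, EV 3 or HDAC8 3.

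SLC9A3, the sodium-proton exchanger NHE3, had 15.7, 11.2 and 13.8 normalized counts with EV and 198, 53.3 and 46.8 with HDAC8, and its log2 fold change was 2.88 (SE 0.86, adjusted p = 0.00937). Its antisense transcript SLC9A3-AS1 had 409, 628 and 383 with EV and 2431, 721 and 1003 with HDAC8, and rose by 1.55 (adjusted p = 5.92e-04). HDAC8 1 was far above the other libraries for both transcripts. SLC9A3-AS1 lies within SLC9A3 on the opposite strand, so the 2 may share reads. Without it SLC9A3 had a log2 fold change of 1.88 and did not pass (adjusted p = 0.291), nor did it with limma-voom (adjusted p = 0.152), and SLC9A3-AS1 had 0.86 and still passed. The pseudogene AC026412.1 rose without overlap, from 54.5, 95.3 and 63.0 with EV to 457, 384 and 430.1 with HDAC8, with a log2 fold change of 2.58 (SE 0.40, adjusted p = 5.45e-09).

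The remaining neighbors with a mean of at least 10 normalized counts did not pass. Their log2 fold changes were 0.34 for PDCD6, a calcium-binding protein of cell death, 0.51 for ZDHHC11B, 0.82 for PP7080, 1.54 for EXOC3-AS1, 0.44 for MRPL36 of the mitochondrial ribosome and 0.83 for NDUFS6 of respiratory complex I. For AC021087.3, AC021087.2, AC026740.1, AC026412.3 and AC026412.2 they were 0.86, 0.90, 0.82, 2.46 and 1.19. All 11 were positive. For EXOC3-AS1 the interval ran from 0.05 to 3.04 (adjusted p = 0.192), and for NDUFS6 from -0.05 to 1.71 (adjusted p = 0.250).

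Over the 16 neighbors with a mean of at least 50 the median log2 fold change was 0.83, and all 16 were positive. Their median difference from the EV mean was 1.03, 0.73 and 0.62 in HDAC8 1 to 3. Among the 10 protein-coding neighbors tested, of which 9 had an adjusted p, 5 rose and the median was 0.80. Without HDAC8 1 the number that rose was 4 (AC026412.1, CCDC127, LPCAT1 and SLC9A3-AS1), and without EV 3 it was also 4 (AC026412.1, LPCAT1, SLC9A3 and SLC9A3-AS1). LPCAT1, AC026412.1 and SLC9A3-AS1 passed under all 15 alternatives. SLC9A3 and EXOC3 overlap over 1482 bases and PP7080 and EXOC3 over 5814, both on opposite strands. On opposite strands too, SLC9A3-AS1 lies within SLC9A3, AC021087.2 within PDCD6, AC026740.1 within TPPP and AC026412.2 within AC026412.1. AC026412.3 also overlaps AC026412.1 in part. AC021087.3 lies within CCDC127 on the same strand. Whether reads were counted by strand is not stated, so reads of these pairs may be shared. The counts of neighbors above may thus include the same reads more than once.

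**Figure D3:**
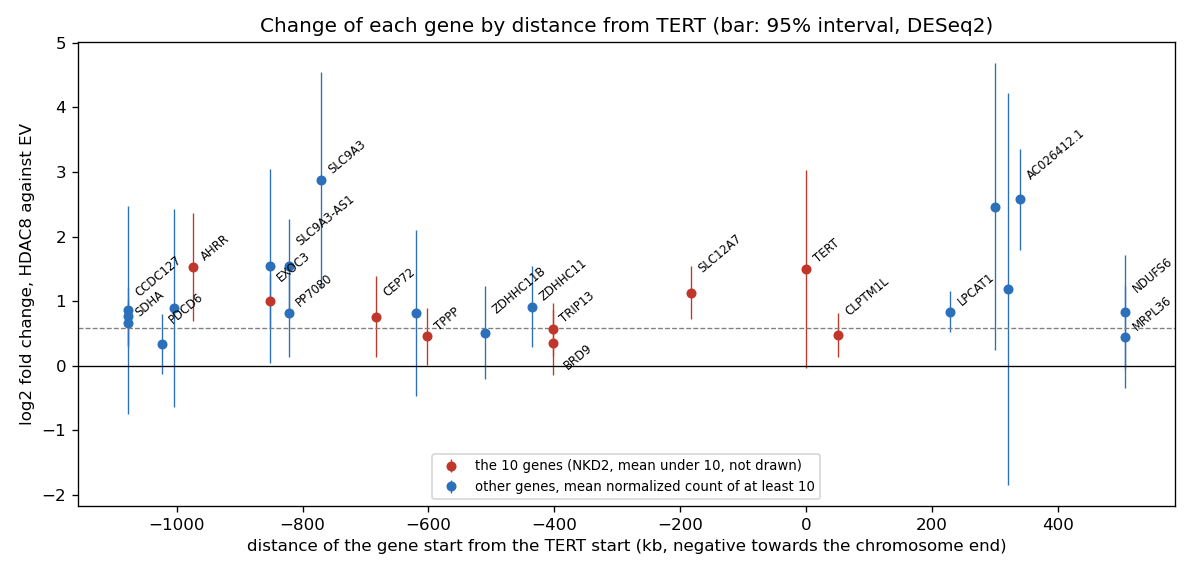
Log2 fold change of HDAC8 against EV (vertical axis) by distance of the gene start from that of TERT in kb (horizontal axis), for 9 of the 10 genes (red) and the 18 other genes of the first 2 Mb with a mean of at least 10 normalized counts (blue). Bars are 95% intervals and the dashed line is the fold threshold of 0.58. All 27 points lie above 0, from 0.34 for PDCD6 to 2.88 for SLC9A3.

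Farther along the arm the differences were smaller. Over 26 genes with a mean of at least 50 that start in the first 5 Mb, 9 of the 10 genes (without NKD2) included, the median log2 fold change was 0.83, and 10 rose and 0 fell. The median was 0.11 over 15 genes from 5 to 10 Mb and 0.51 over 13 genes from 10 to 15 Mb. Few genes lie between 15 and 30 Mb. From 30 to 35 Mb the median was 0.21 (18 genes), from 35 to 40 Mb 0.55 (21 genes) and from 40 to 45 Mb 0.34 (25 genes). Over the 98 genes from 5 to 48 Mb it was 0.30, with 16 that rose and 4 that fell, and over 548 genes of the long arm 0.09, with 38 that rose and 22 that fell. The short arm thus lay above the long arm in its median, and its first 5 Mb above the rest. The difference between these stretches was not tested.

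The tips of other chromosomes were compared where at least 20 genes with a mean of at least 50 start in the first 2 Mb, a minimum set after the values were seen. The median log2 fold change was 0.83 on chromosome 5 (25 genes) and 0.73 on chromosome 7 (27 genes). The 25 genes include 9 of the 10 members, which were chosen on this contrast, and the 16 neighbors alone had a median of 0.83. The stretch itself was also proposed with these libraries, unlike the other tips. It was 0.39 on chromosome 17 (25 genes), 0.38 on chromosome 4 (28 genes), 0.32 on chromosome 19 (67 genes) and 0.19 on chromosome 1 (56 genes). On chromosome 16 (70 genes) it was -0.10 and on chromosome 11 (44 genes) -0.18. Among the tips under the minimum, the median was 0.76 on chromosome 6 (6 genes) and -0.60 on chromosome 10 (8 genes). With 19 genes each, it was -0.14 on chromosome 12 and -0.05 on chromosome 20. Of the tips that met the minimum, that of chromosome 7 was thus close to that of chromosome 5 in its median. The difference between the tips was not tested.

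**Figure D4:**
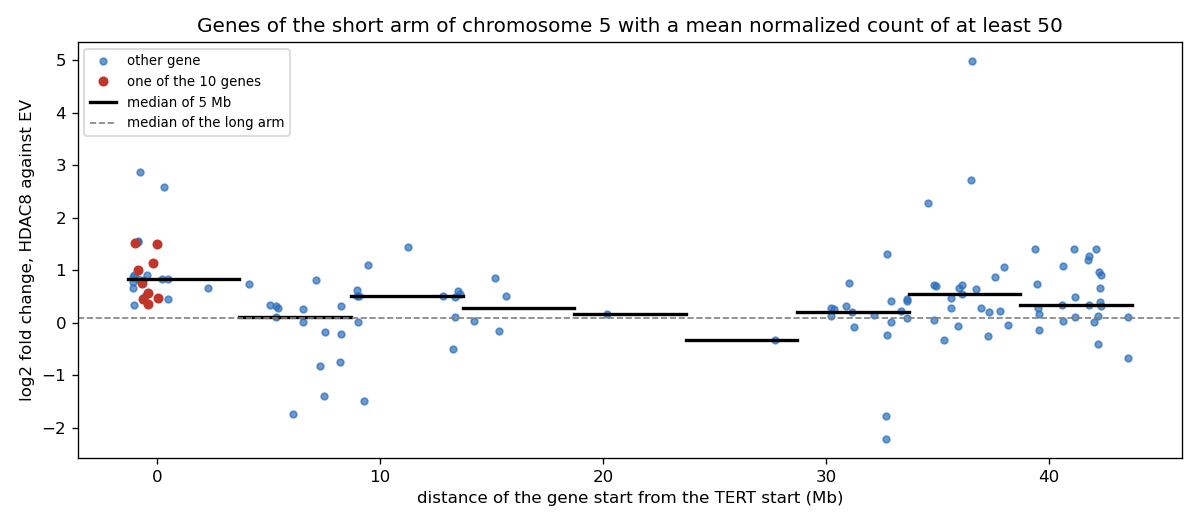
Log2 fold change of HDAC8 against EV (vertical axis) for genes of the short arm of chromosome 5 with a mean of at least 50 normalized counts, by distance of the gene start from that of TERT in Mb (horizontal axis). Red points are members of the 10, black lines are medians over stretches of 5 Mb and the dashed line is the median of the long arm, 0.09. The median of the first stretch is 0.83, and those of the other stretches lie between -0.33 and 0.55. The -0.33 is the value of the 1 gene that starts between 25 and 30 Mb of the chromosome. The stretch from 20 to 25 Mb also holds 1 gene.

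The genes most like TERT over the 6 libraries were sought among 14450 genes with a mean of at least 50, by Euclidean distance between centred log2(normalized count + 1) profiles. The nearest 3 were ENSG00000275252, ENSG00000276737 and ENSG00000276796, which have no symbol and identical counts in every library, at a distance of 0.76. Next came CCDC74B on chromosome 2 (1.00) and AC005703.6 on chromosome 17 (1.04). CCDC74B had 17.8, 57.9 and 14.8 normalized counts with EV and 136, 98.3 and 43.6 with HDAC8, so that, as for TERT, EV 2 was the highest EV library and HDAC8 1 the highest HDAC8 library. The most similar gene of the tip of 5p was EXOC3-AS1, in place 27, and the most similar of the other 9 genes was SLC12A7, in place 419. With 6 libraries these distances are a description.

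The pathways and complexes to which the 10 genes belong were followed through lists written from general knowledge. They held 112 genes, of which 105 were tested and 102 had an adjusted p. Of these, 11 rose, beside 5.57% of all genes in that direction, and 2 fell. The 13 in all stood beside 11.0% of all genes in either direction, and the median log2 fold change was 0.07. The same shares stand beside each list below. The lists are short, so their counts are a description. CYP1A1, NQO1, ETS1, NKD1 and BRD7 passed under all 15 alternatives, whereas TIPARP passed under 8, EXOC2 under 9, AURKB under 11, HDAC6 and SLC12A4 under 12, and ACTL6A, ETV4 and NOTUM under 14.

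Of the 18 genes of telomerase and telomere-end proteins, 0 passed, and the median log2 fold change was 0.13. DKC1, the pseudouridine synthase that stabilizes telomerase RNA, had 0.29 (SE 0.15, adjusted p = 0.208). TERC, the template RNA, had 87.0, 176 and 151 normalized counts with EV and 257, 279 and 68.6 with HDAC8, a log2 fold change of 0.55 (SE 0.57, adjusted p = 0.667). Its highest values were in HDAC8 1 and HDAC8 2 and its lowest in HDAC8 3, so the groups overlapped.

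Of the 12 factors known to act on the TERT promoter, 1 rose and 1 fell, with a median of -0.10. ETS1, an ETS family activator, rose by 0.71 (adjusted p = 0.00219), and ETV4 of the same family fell by 0.72 (adjusted p = 5.04e-04). Without EV 2 ETV4 had a log2 fold change of -0.55 and did not pass. MYC, which activates TERT through E-boxes, had a log2 fold change of -0.01 (adjusted p = 0.987).

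Around AHRR, 2 of 10 genes tested (8 with an adjusted p) rose and 1 fell, with a median of -0.05. CYP1A1, the xenobiotic-metabolizing cytochrome and classic target of the receptor, had 259, 272 and 395 normalized counts with EV and 841, 877 and 597 with HDAC8, and rose by 1.32 (SE 0.30, adjusted p = 2.66e-04). NQO1, a quinone reductase that NRF2 also controls, had 7138, 7609 and 6468 with EV and 3914, 3437 and 3048 with HDAC8, and its log2 fold change was -1.03 (SE 0.15, adjusted p = 1.02e-09). Neither gene overlapped between the groups, and these targets moved in opposite directions. TIPARP, a target that limits the receptor, rose by 0.60 (adjusted p = 0.0379). AHR itself had 0.37 (adjusted p = 0.238).

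Around NKD2, 2 of 13 canonical WNT genes rose, and the median was 0.33. NKD1, the paralog of NKD2 and a WNT target, had 1102, 1272 and 1019.6 normalized counts with EV and 3339, 2853 and 2994 with HDAC8, and rose by 1.44 (SE 0.18, adjusted p = 3.55e-14). NKD1 was thus abundant where NKD2 was at or near 0. NOTUM, the secreted deacylase that inactivates WNT ligands, rose by 2.46 (SE 0.64, adjusted p = 0.00217), from 17.8, 39.2 and 24.6 to 168, 181 and 99.1 normalized counts. It did not pass with limma-voom (adjusted p = 0.0506).

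In each of the other complexes 1 gene rose. In the exocyst, 1 of 8 genes other than EXOC3 rose (EXOC2, 0.63, adjusted p = 0.0397), and the median was 0.11, against 1.00 for EXOC3 itself. In the non-canonical BAF complex, 1 of 14 rose (ACTL6A, an actin-related subunit, 0.67, adjusted p = 0.00592), with a median of 0.10. In the spindle checkpoint, 1 of 11 (10 with an adjusted p) rose (the kinase AURKB, 0.61, adjusted p = 0.00587). MAD2L1, the protein that TRIP13 remodels, had 0.12 and did not pass.

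Of 10 centrosome and microtubule genes, HDAC6, a tubulin deacetylase, rose by 0.76 (adjusted p = 0.0168), and the median was -0.12. Of 7 cation-chloride cotransporters other than SLC12A7, SLC12A4 rose by 0.77 (adjusted p = 0.0323), although its groups overlapped, and the median was 0.02. Among 7 paralogs of the 10 genes that were tested, 3 rose (NKD1, SLC12A4 and BRD7, at 0.80 with adjusted p = 8.53e-06), with a median of 0.37. CLPTM1, the paralog of CLPTM1L, had 0.26 (adjusted p = 0.310).

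**Figure D5:**
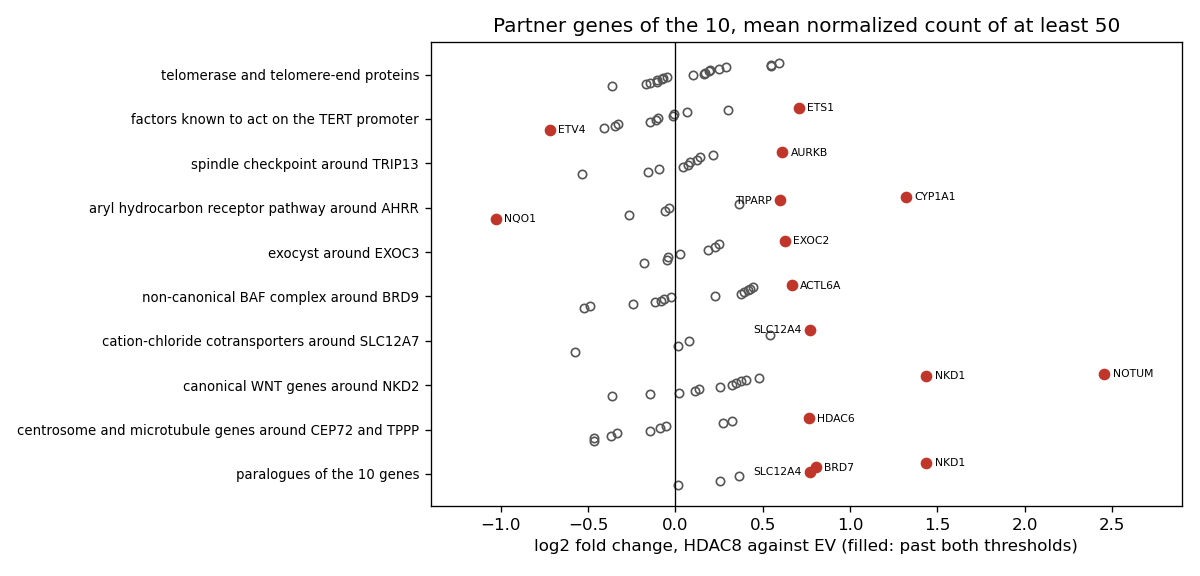
Log2 fold change of HDAC8 against EV (horizontal axis) for genes of the 10 partner lists (rows) with a mean of at least 50 normalized counts, with filled points for the genes that passed both thresholds. The telomerase row has 0 filled points, and the named genes run from NQO1 at -1.03 to NOTUM at 2.46.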

How the data were processed

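RNA-seq of 6 libraries (EV and HDAC8, 3 each, grouped by the labels) was analysed. The authors trimmed reads with Trimmomatic, aligned them with STAR and estimated gene abundance with RSEM, and the deposited values are expected counts that the authors did not scale between libraries. Build, annotation and strand setting are not given in the sources used here. Expected counts were rounded and fitted with DESeq2 1.42.0 (R 4.3.3, size factors 0.918 to 1.17, two-sided Wald test, Benjamini-Hochberg adjustment) over 26162 genes with a total of at least 10 counts. A call needed an adjusted p under 0.05 and an absolute log2 fold change of 0.58 or more, the thresholds of the study's methods. Positions came from GENCODE release 44 (GRCh38), in which 56558 of the 60504 identifiers were found, and 3508 rows carried no symbol.

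The members, lists and tests were chosen with earlier results of these data known. Named genes are the 10 members, the neighbors that start in the first 2 Mb with a mean of at least 10 normalized counts, the called partner genes with a mean of at least 50 and those that the roles needed, and the 5 genes nearest to TERT. Alternatives were edgeR 4.0.16 and limma-voom 3.58.1 with TMM scaling, other size factors and filters, a replicate block, a fit without mitochondrially encoded genes and each library left out. Scaling within 20 GC bins was added after the data had been seen. Of the listed genes, 1 is not reported here. The fits were tested on simulated data. No library was a copy of another of its group (chi-square per degree of freedom between them, 27.6 to 168). HDAC8 1 stood apart over the whole table, at 168 against HDAC8 2 and 112 against HDAC8 3. The value was 27.6 between HDAC8 2 and HDAC8 3, and 42 to 51.6 between EV libraries. HDAC8 1 also had the lowest mitochondrial share (4.46%). Nothing says that the libraries came from separate transfections, so p-values measure the spread between these libraries, which may be technical. The floor of 3 counts covers counting error only. The alternative planned for values without counts did not apply.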

Additional observations from a re-analysis of the deposited data

How the results depend on the processing

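The median log2 fold change of the 10 genes stayed between 0.71 and 0.96 under all alternatives, and that of their neighbors between 0.72 and 0.98. With libraries left out in turn, the number of the 10 genes that passed ran from 2 to 5 (5 without EV 2, 2 without HDAC8 3), of neighbors from 4 to 7, of partner genes from 8 to 13 (8 without EV 1) and of all genes from 1653 to 2485. The cause was not tested, although fewer libraries enter those fits. The other alternatives left these counts within 1.5 times of 3, 7, 13 and 2313. BRD9 was the 1 member whose direction changed, to -0.03 without HDAC8 1. The replicate numbers did not pair the libraries (correlations of deviations -0.03, -0.07 and 0.04). With the replicate block, 3 of the 10 genes, 6 neighbors, 11 partner genes and 2153 genes in all passed, and the median of the 10 was 0.83. Low counts limit TERT and NKD2 most. The stretch, arm and GC comparisons were not tested, and positions follow an annotation that may not be the authors' own.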
